A study of Mus musculus with 6 samples.

Results

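Solute carriers are membrane proteins that move sugars, amino acids, nucleosides, vitamins, metals and other ions across the plasma membrane and the membranes of organelles. Most work as exchangers, as symporters driven by sodium or proton gradients, or as passive facilitators, and in the gut they serve both the absorption of nutrients from the lumen and the supply of the epithelial cells themselves. Their gene symbols carry a family number, so that, for example, the *Slc7* family holds amino acid exchangers and the *Slc30* and *Slc39* families hold zinc carriers. The genes described here were the rows of the expression table whose symbol began with Slc and a family number and which reached 4 rpkm (reads per kilobase of exon, scaled to the number of mapped reads) in at least 1 of 6 libraries. *Slc38a4*, *Slc7a11*, *Slc5a1* and 3 pseudogene rows were set aside. This gave 161 genes of 36172 rows, in 42 families.

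The RNA came from organoids, 3-dimensional cultures of tumor epithelial cells, grown from intestinal tumors of C57BL/6 mice aged 15 to 20 weeks. All organoids carried the *Apc*Δ716 allele, which truncates the Apc protein at codon 716. The paper found the wild-type *Apc* allele lost in tumor cells of *Trp53* +/R270H mice and did not show this for the organoids. The organoids differed in *Trp53*, the gene of p53. *Trp53* +/+ organoids kept wild-type p53. *Trp53* flox/flox organoids carried the unrecombined LSL•R270H allele on both chromosomes, which is functionally null. In *Trp53* R270H/R270H organoids the same allele had been recombined by villin-CreER after tamoxifen, so that the epithelium expressed the missense protein p53 R270H. Each genotype was represented by 2 organoid preparations from different mice (n=2 throughout). The question asked was how expression in tumor cells with missense p53 differed from that with no p53 and with wild-type p53.

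The level of *Trp53* itself (chromosome 11, 69580348 to 69591873) was 75.1±1.10 rpkm (mean±s.d.) in +/+, 2.11±0.529 in flox/flox and 77.7±7 in R270H/R270H organoids. All 8 epithelial markers were expressed in every library, and their summed level ran from 2864 to 2920 rpkm in +/+, 4228 to 4557 in flox/flox and 2327 to 2506 in R270H/R270H. Of 10 fibroblast and smooth muscle markers only *Acta2* reached 4 rpkm, at 11.5 rpkm in flox/flox replicate 2, and of 7 blood cell markers in the table only *Lyz2* did, at 5.67 rpkm in the same library. Of 5 endothelial markers, *Pecam1* and *Kdr* stood at the lowest value of the table in all libraries. The list summed to 21.6 and 23 rpkm in +/+, 5 and 27.7 in flox/flox and 5.13 and 5.2 in R270H/R270H organoids. No value of the table was below 1 rpkm, which acted as a floor, and 23760 rows had this value throughout. The table gave no read counts, so the depth behind each value was unknown.

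The spread between the 2 libraries was uneven. Over all 10042 genes with at least 4 rpkm in a library, the typical s.d. on the log2 scale was 0.0463 in +/+, 0.247 in flox/flox and 0.0621 in R270H/R270H organoids, and for the solute carriers it was 0.0576, 0.245 and 0.0720. None of the 161 carriers differed 2-fold or more between the +/+ libraries or between the R270H/R270H libraries. In flox/flox organoids 19 did (11.8%, against 12.6% of all genes tested). The widest gap was in *Slc9a3*, the sodium-proton exchanger of the brush border, at 1 and 13.8 rpkm. The plot of replicate 1 against replicate 2 shows this difference in scatter between genotypes.

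**Figure D1:**
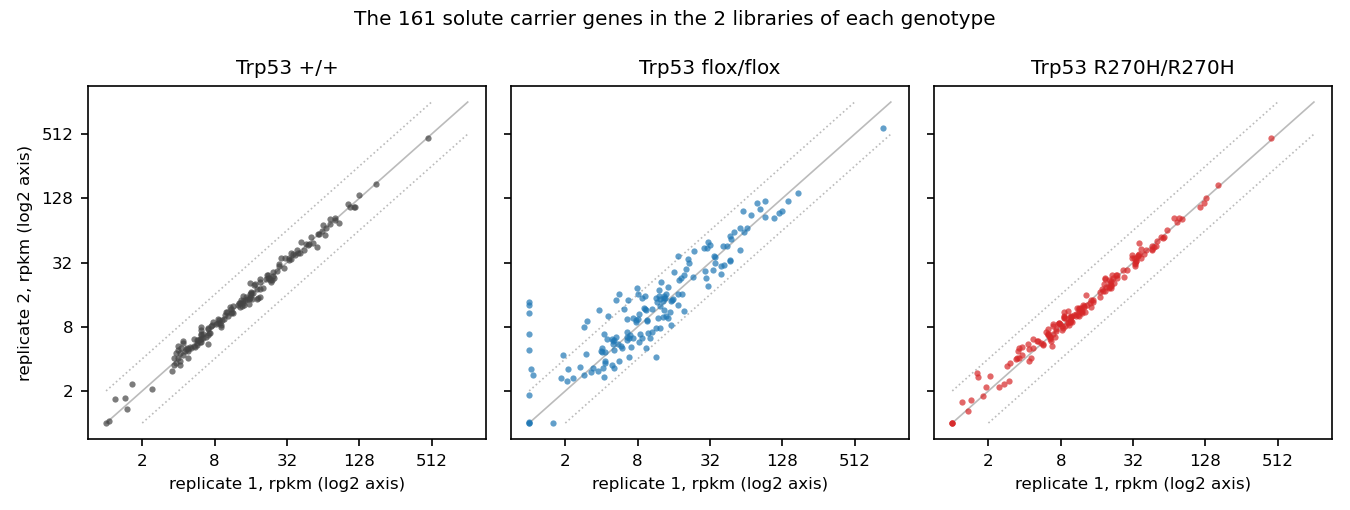
Each panel plots the 161 solute carrier genes of a genotype, with the rpkm of replicate 1 on the horizontal and of replicate 2 on the vertical axis, both on log2 axes. The solid line marks equal values and the dotted lines a 2-fold difference; 19 points lie on or outside the dotted lines in flox/flox and 0 in each of the other genotypes.

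The 161 genes covered a wide range of levels. The mean over the 6 libraries went from 1.66 rpkm to 558 rpkm, with a median of 11.6 rpkm, against a median of 13.5 rpkm for all genes tested. The highest was *Slc25a5*, the mitochondrial carrier that exchanges ADP for ATP. Of the 161 genes, 17 reached 4 rpkm in the libraries of 1 genotype only: 7 in +/+, among them *Slc6a15*, *Slc7a3*, *Slc4a11* and *Slc35d2*, 5 in flox/flox, among them *Slc23a3* and *Slc35e4*, and 5 in R270H/R270H, among them *Slc7a8*, *Slc16a12*, *Slc46a3* and *Slc39a13*. These entered the comparisons through the genotype in which they were high, so their differences are given as a description. In 121 genes all 6 libraries had at least 4 rpkm, and 10 genes had at least 1 library at the floor. Just inside the limit of 4 rpkm were *Slc35d1*, *Slc12a9* and *Slc46a3*, whose highest values were 4.08, 4.27 and 4.33 rpkm, and just outside were *Slc5a9*, *Slc36a1* and *Slc5a3* at 3.94, 3.79 and 3.76 rpkm. Another 194 rows with an Slc symbol were below 4 rpkm in every library, 143 of them at the floor throughout. Of the 161, 4 products are not carriers but partners or neighbours with a carrier's symbol, namely *Slc9a3r1*, *Slc9a3r2*, *Slc7a6os* and *Slc4a1ap*. They stay in the counts of carriers given here. In 96 of the 161 genes (59.6%) all 6 libraries lay within 2-fold, as they did in 59.2% of all genes tested.

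R270H/R270H organoids differed from +/+ organoids in 31 solute carriers, mostly by lower expression. Limma, fitted to log2(rpkm + 1) over all 10042 genes, called 9 higher and 22 lower at an adjusted p below 0.05. This was 5.59% of the carriers against 5.86% of all genes tested for higher expression, and 13.7% against 6.36% for lower expression. In flox/flox organoids 3 carriers, counting *Slc9a3r1*, were called higher than in +/+ (1.86%, against 4.38% of all genes) and 21 lower (13%, against 6.9%). Between the mutant genotypes, 26 were called higher in R270H/R270H (16.1%, against 13.6%) and 18 lower (11.2%, against 11%). In either direction these were 31, 24 and 44 carriers (19.3%, 14.9% and 27.3%, against 12.2%, 11.3% and 24.6% of all genes), and 61 carriers (37.9%, against 32.1%) were called in at least 1 of the 3 comparisons, which share libraries and are not independent of each other. Among the 144 carriers that reached 4 rpkm in at least 2 genotypes, 6 were called higher and 19 lower in R270H/R270H than in +/+ (4.17% and 13.2%, against 4.41% and 5.94% of such genes). In flox/flox against +/+ 2 and 18 were called (1.39% and 12.5%, against 4.35% and 6.27%), and in R270H/R270H against flox/flox 22 and 16 (15.3% and 11.1%, against 11.9% and 11.2%). The median log2 fold change of all 161 carriers was -0.09 for R270H/R270H against +/+, -0.15 for flox/flox against +/+ and 0.03 for R270H/R270H against flox/flox, beside 0.03, -0.02 and 0.03 for all genes. Because whole cultures were measured, fewer cells of a kind and less RNA per cell cannot be told apart.

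Counts by rank and by the size of the fold do not use the spread that limma estimates. The 2 libraries of R270H/R270H lay above both +/+ libraries in 52 carriers (32.3%, against 44.2% of all genes) and below both in 78 (48.4%, against 37.6%). Those of flox/flox lay above in 34 (21.1%, against 30.6%) and below in 76 (47.2%, against 33.9%). Between the mutant genotypes the R270H/R270H libraries lay above in 57 (35.4%, against 36.8%) and below in 46 (28.6%, against 31.2%). Lower values than in +/+ were thus more frequent among the carriers than among all genes in both mutant genotypes. By their means, 7 carriers were at least 2-fold higher (4.35%, against 4.38%) and 13 at least 2-fold lower (8.07%, against 6.09%) in R270H/R270H than in +/+. In flox/flox 6 were 2-fold higher (3.73%, against 4.54%) and 16 lower (9.94%, against 6.49%), and between the mutant genotypes 13 were higher (8.07%, against 7.88%) and 13 lower (8.07%, against 7.51%) in R270H/R270H. At an unadjusted p below 0.05, 67 carriers (41.6%, against 32% of all genes), 59 (36.6%, against 34.7%) and 72 (44.7%, against 42.5%) differed in the 3 comparisons in the same order.

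The counts of limma depended on single libraries. Shares over all genes are not given for the fits of this paragraph. Its counts describe the carriers alone and are not set against other genes. For R270H/R270H against +/+, limma called 0 carriers in either direction without either +/+ library or without R270H/R270H replicate 1 (10 to 13 higher and 24 to 26 lower at an unadjusted p below 0.05), and 3 higher and 0 lower without R270H/R270H replicate 2 (30 lower at an unadjusted p below 0.05). Without flox/flox replicate 1 it called 39 higher and 63 lower, and without flox/flox replicate 2 39 higher and 62 lower, with all 31 of the calls above among them. For flox/flox against +/+ it called 0 carriers without any 1 of the +/+ or R270H/R270H libraries (4 to 8 higher and 23 to 33 lower at an unadjusted p below 0.05), 26 higher and 48 lower without flox/flox replicate 1, and 27 and 71 without flox/flox replicate 2. For R270H/R270H against flox/flox the counts were 5 higher and 3 lower without either +/+ library, 3 and 0 without R270H/R270H replicate 1 and 4 and 0 without R270H/R270H replicate 2 (16 and 23 lower at an unadjusted p below 0.05), 40 and 45 without flox/flox replicate 1 and 68 and 44 without flox/flox replicate 2.

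**Figure D2:**
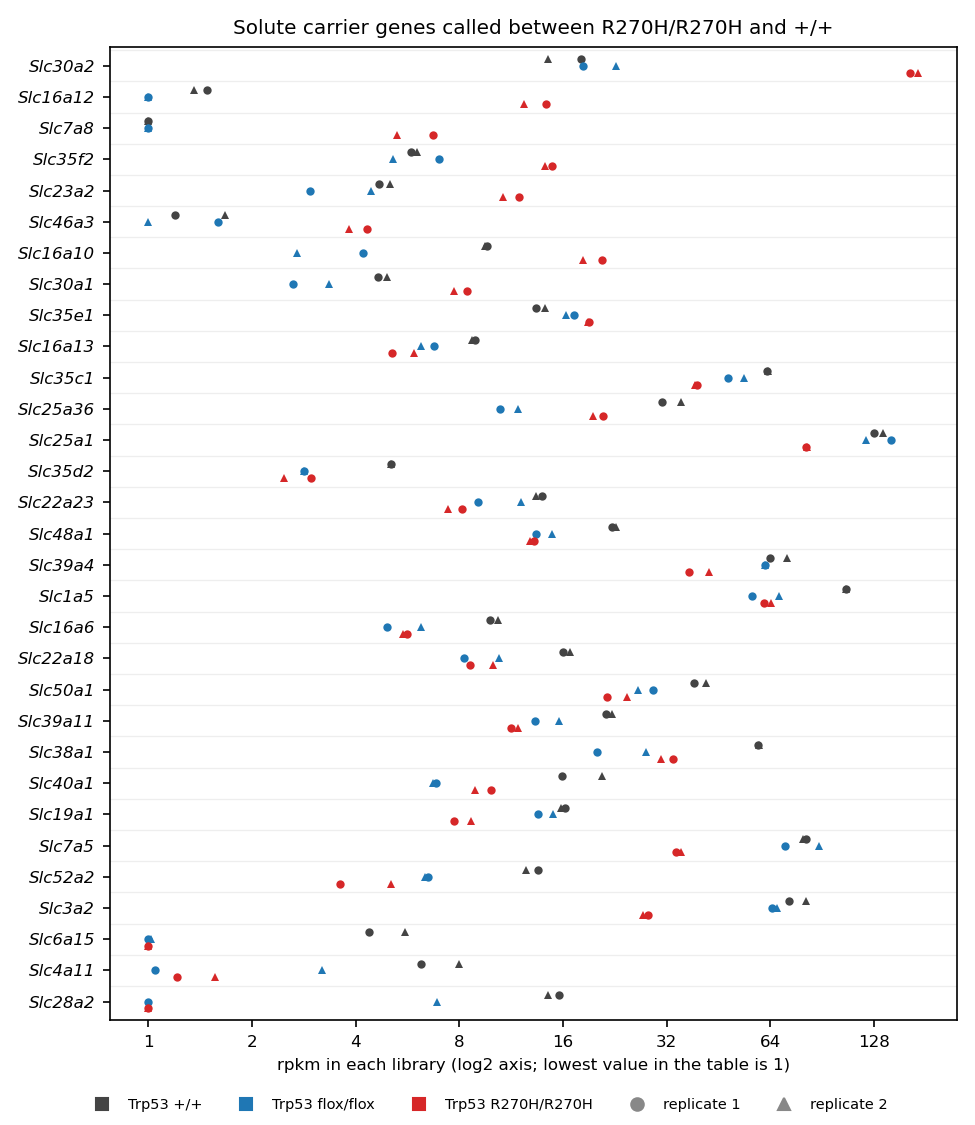
Each row is a solute carrier gene called by limma between R270H/R270H and +/+ organoids, ordered by log2 fold change, and each point is the rpkm of a library on a log2 axis, coloured by genotype and shaped by replicate. The top 9 rows are the genes higher in R270H/R270H, led by *Slc30a2*, and the lower 22 rows are those lower, ending with *Slc28a2* at 1 rpkm in both R270H/R270H libraries.

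Ranked gene by gene, the +/+ libraries were both above the other 4 libraries in 47 carriers (29.2%, against 17.1% of all genes tested) and both below them in 11 (6.83%, against 15.6%). The R270H/R270H libraries were above the other 4 in 39 carriers (24.2%, against 26.5%) and below them in 33 (20.5%, against 18.7%), and the flox/flox libraries were above in 24 (14.9%, against 19.9%) and below in 38 (23.6%, against 22.2%). The +/+ libraries were thus the genotype whose share of carriers at the top lay farthest above the share of all genes. Limma called 11 carriers lower than +/+ in both mutant genotypes (6.83%, against 2.49%), namely *Slc16a6*, *Slc1a5*, *Slc22a18*, *Slc25a36*, *Slc35d2*, *Slc38a1*, *Slc39a11*, *Slc40a1*, *Slc48a1*, *Slc52a2* and *Slc6a15*. It called 0 higher in both (0.597% of all genes), and 4 were higher in both at an unadjusted p below 0.05 (2.48%, against 3.9%). Called higher in R270H/R270H than in both other genotypes were 8 carriers (4.97%, against 4.17%), namely *Slc30a2*, *Slc16a12*, *Slc7a8*, *Slc35f2*, *Slc23a2*, *Slc46a3*, *Slc16a10* and *Slc30a1*. All of these but *Slc30a1* were at least 2-fold higher in R270H/R270H than in +/+ organoids by their means while flox/flox organoids were not (7 carriers, 4.35%, against 3.49% of all genes), and 0 carriers were 2-fold higher in both mutant genotypes (0.896% of all genes). Called lower in R270H/R270H than in both other genotypes were 6 carriers (3.73%, against 2.66%), namely *Slc19a1*, *Slc25a1*, *Slc35c1*, *Slc39a4*, *Slc3a2* and *Slc7a5*. In the counts of this paragraph, *Slc16a12*, *Slc7a8* and *Slc46a3* reached 4 rpkm in R270H/R270H only, and *Slc6a15* and *Slc35d2* in +/+ only. The shares over all genes likewise include genes of this kind. The counts were not repeated without them and are a description.

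**Figure D3:**
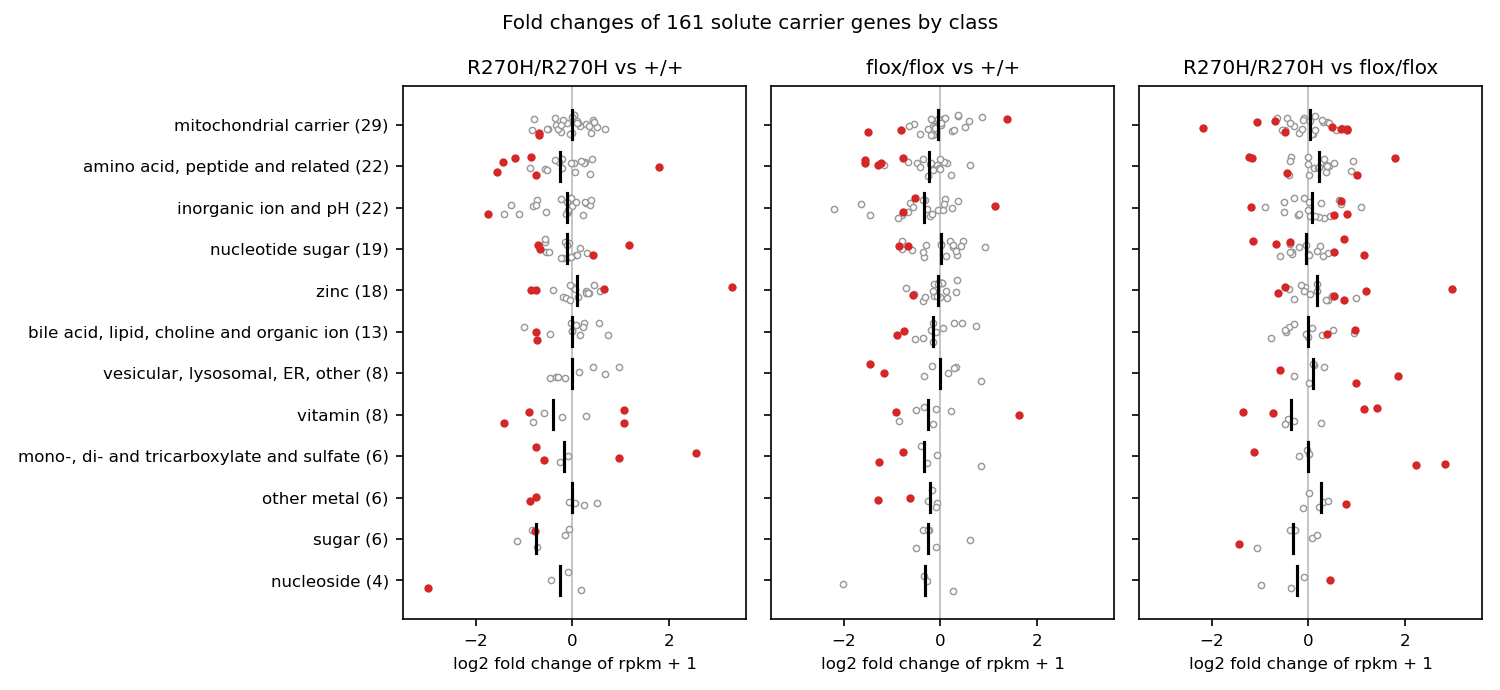
Each point is a solute carrier gene, placed by its log2 fold change of rpkm + 1 (horizontal axis) in the row of its class, with the number of genes of the class in parentheses, for each of the 3 comparisons. Filled red points were called by limma, open points were not, and black bars are class medians; the 6 sugar carriers have their median at -0.75 in R270H/R270H against +/+ and all lie below 0 there.

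The largest increase among the carriers was in a zinc exporter of vesicles. The *Slc30* proteins move zinc out of the cytosol, into vesicles or out of the cell, and the *Slc39* proteins bring it into the cytosol. *Slc30a2*, which loads zinc into secretory vesicles (chromosome 4, 134343046 to 134354484), was at 18.1 and 14.5 rpkm in +/+, 18.3 and 22.9 in flox/flox and 163 and 172 in R270H/R270H organoids. The R270H/R270H libraries stood far above the other 4, among which the genotypes did not overlap but lay close together. The mean was 10.3-fold higher than in +/+ (log2 fold change 3.30, s.e. 0.16, limma adjusted p=0.00354) and 8.15-fold higher than in flox/flox (2.97, adjusted p=0.00184). *Slc30a1*, the exporter that carries zinc out through the plasma membrane (chromosome 1, 191906697 to 191913248), was at 4.63 and 4.94 rpkm in +/+, 2.63 and 3.36 in flox/flox and 8.41 and 7.73 in R270H/R270H. It was 2.70-fold higher in R270H/R270H than in flox/flox (limma adjusted p=0.00888) and 1.69-fold higher than in +/+ (adjusted p=0.0474), a call that was lost with another pseudocount or scaling (adjusted p=0.0564 and 0.0503). A noncoding antisense gene shares 468 exon bases with *Slc30a1*, and that gene stood at the floor in all libraries.

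Among the other zinc carriers the changes were smaller and went both ways. *Slc39a4*, the importer that takes up dietary zinc, was at 63.8 and 71.4 rpkm in +/+, 61.8 and 61.8 in flox/flox and 37.2 and 42.5 in R270H/R270H organoids. Only the R270H/R270H libraries were low, with a log2 fold change of -0.75 against +/+ (s.e. 0.12, limma adjusted p=0.0214) and of -0.62 against flox/flox (adjusted p=0.0225). *Slc39a11* fell in both mutant genotypes, from 21.4 and 22.2 rpkm in +/+ to 13.3 and 15.5 in flox/flox and 11.3 and 11.8 in R270H/R270H (log2 fold change -0.57 and -0.86). Between the mutant genotypes, *Slc30a9* and *Slc39a13* were called higher in R270H/R270H (log2 fold change 0.54 and 0.75) and *Slc39a1* lower (-0.49). Of the 18 zinc carriers 2 were called higher and 2 lower in R270H/R270H than in +/+ organoids, with a class median of 0.09 on the log2 scale, and 0 higher and 1 lower in flox/flox (1 and 2 at an unadjusted p below 0.05). The shares over all genes tested were 5.86% higher and 6.36% lower in R270H/R270H, and 4.38% and 6.9% in flox/flox. At an unadjusted p below 0.05 (limma), 1652 of all 10042 genes were higher and 1837 lower in flox/flox. *Mt1* and *Mt2*, which encode the zinc-binding metallothioneins, were not called higher in R270H/R270H organoids. *Mt1* was at 122 and 87.4 rpkm in +/+, 71.9 and 145 in flox/flox and 19.2 and 39 in R270H/R270H organoids, called lower in R270H/R270H than in flox/flox (limma adjusted p=0.0431) but not than in +/+ (adjusted p=0.0608). *Mt2* ranged from 7.97 to 87.5 rpkm within flox/flox alone. *Mtf1*, the transcription factor that senses zinc, was at 3.41 and 3.46 rpkm in +/+, 2.62 and 3.74 in flox/flox and 4.52 and 4.91 in R270H/R270H and was not called (limma adjusted p=0.216 against +/+).

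**Figure D4:**
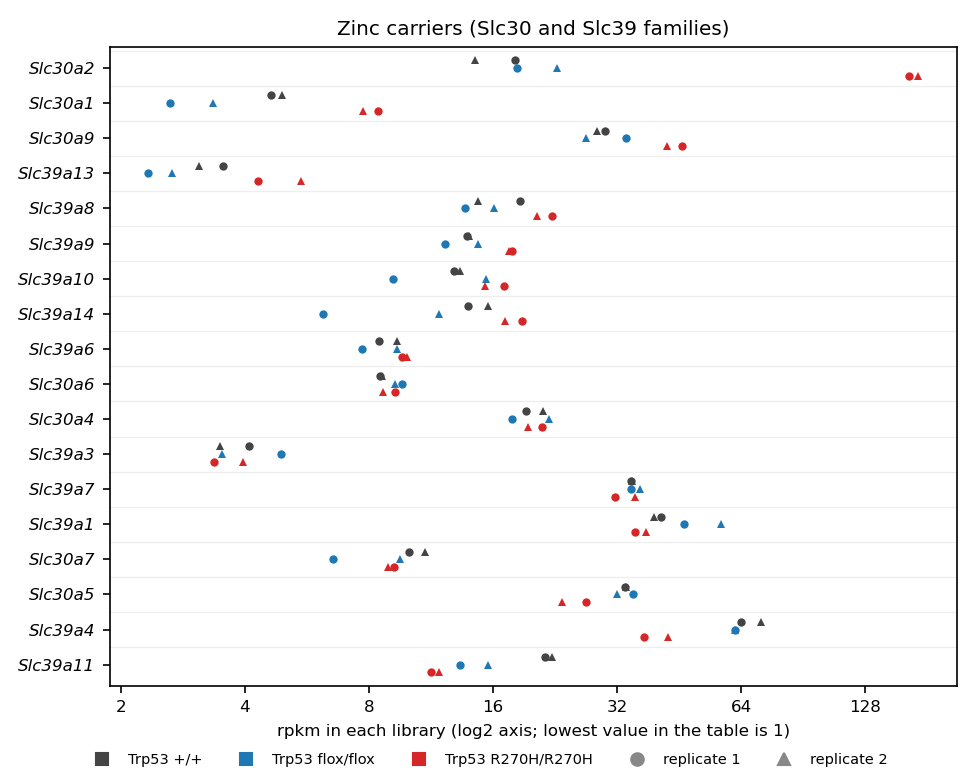
Each row is 1 of the 18 zinc carriers, ordered by log2 fold change of R270H/R270H against +/+, and each point is the rpkm of a library on a log2 axis, coloured by genotype and shaped by replicate. *Slc30a2* is the only row in which a genotype stands apart by more than 4-fold: its R270H/R270H libraries are at 163 and 172 rpkm and the other 4 between 14.5 and 22.9 rpkm.

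The start regions of *Slc30a2*, *Slc30a1*, *Slc16a12* and *Slc7a8* are shown as examples of the 8 genes called higher in R270H/R270H than in both other genotypes: the pair of zinc exporters, and the 2 genes whose log2 fold change against +/+ came next after that of *Slc30a2*. They are written 5′ to 3′ on the strand of the gene, from RefSeq on GRCm38.p6, with matches to the core of the metal response element in capitals (TGCGCNC or TGCACNC, either strand, overlaps allowed). For *Slc30a2* only the 30 bases around its matches are shown, chr4:134343249-134343278 on the plus strand. The matches begin at positions -214 and -200 relative to the RefSeq start site used. Both matches lie downstream of the starts that GENCODE gives to other transcripts, at 134343181 and 134343206. For *Slc30a2*, *Slc30a1* and *Slc16a12*, the gene coordinates given in this text also begin upstream of the start site used. The other regions run from 250 bases before to 50 bases after the start site: chr1:191906531-191906830 on the plus strand, chr14:54781837-54782136 on the minus strand and chr19:34747279-34747578 on the minus strand.
Slc30a2: cccGCGCGCAacttcgaGGGCGCAccgaga
Slc30a1: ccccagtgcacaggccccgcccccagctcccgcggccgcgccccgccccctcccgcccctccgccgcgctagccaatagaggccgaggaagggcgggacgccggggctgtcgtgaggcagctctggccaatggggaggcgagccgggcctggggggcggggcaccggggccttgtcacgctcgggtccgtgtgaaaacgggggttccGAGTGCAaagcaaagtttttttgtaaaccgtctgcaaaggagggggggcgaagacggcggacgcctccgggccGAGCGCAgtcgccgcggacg
Slc7a8: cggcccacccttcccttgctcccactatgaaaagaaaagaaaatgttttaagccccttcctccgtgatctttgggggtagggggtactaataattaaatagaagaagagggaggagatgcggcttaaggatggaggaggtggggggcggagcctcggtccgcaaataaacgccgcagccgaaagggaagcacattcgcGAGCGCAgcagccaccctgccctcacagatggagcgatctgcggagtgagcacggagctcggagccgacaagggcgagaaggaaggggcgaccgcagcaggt
Slc16a12: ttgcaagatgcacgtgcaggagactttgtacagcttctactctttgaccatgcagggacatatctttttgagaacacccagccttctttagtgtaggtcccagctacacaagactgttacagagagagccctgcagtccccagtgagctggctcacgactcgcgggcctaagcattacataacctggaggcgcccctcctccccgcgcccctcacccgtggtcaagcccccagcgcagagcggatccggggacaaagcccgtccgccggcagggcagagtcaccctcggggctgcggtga

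*Slc30a2* and *Slc30a1* had 2 matches each, *Slc7a8* had 1 and *Slc16a12* had 0. Such a match is common: 25.7% of all 32851 start regions of the same length held at least 1, as did 36.6% of the 164 regions of the 118 carriers with an entry. The core of the amino acid response element (TGATGNAA, either strand) occurred in 3.97% of all regions and 3.05% of those of the carriers, and in none of the 4 shown. The p53 response decamer occurred in 8.36% of all regions and 9.15% of those of the carriers, and likewise in none of the 4.

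Of the 6 carriers of other metals, an iron exporter and a heme carrier were called lower in both mutant genotypes, as were 2.49% of all genes tested. *Slc40a1*, ferroportin, the exporter that releases iron from the cell (chromosome 1, 45908070 to 45926532), was at 15.9 and 20.7 rpkm in +/+, 6.87 and 6.71 in flox/flox and 9.88 and 8.90 in R270H/R270H organoids. It fell by 1.30 on the log2 scale in flox/flox (s.e. 0.15, limma adjusted p=0.0147) and by 0.89 in R270H/R270H (adjusted p=0.0276). *Slc48a1*, which moves heme out of lysosomes, was at 22.2 and 22.7 rpkm in +/+ and between 12.8 and 14.9 in the other 4 libraries (log2 fold change -0.64 in flox/flox and -0.74 in R270H/R270H). The genotypes with mutant *Trp53* did not overlap with +/+ in either gene. *Slc11a2*, the importer of dietary iron, was at 11.5 and 12.4 rpkm in +/+ and 12.4 and 12.3 in R270H/R270H. *Slc31a1*, the copper importer and the most abundant of the class, was at 37.1 and 38 rpkm in +/+ and 45.9 and 43 in R270H/R270H (limma adjusted p=0.152). *Slc41a1*, a magnesium carrier, was called higher in R270H/R270H than in flox/flox organoids (log2 fold change 0.78).

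Some amino acid carriers were called lower in each mutant genotype, with calls in partly different genes. The class had 22 genes, of which 1 was called higher and 5 lower in R270H/R270H than in +/+ organoids, and 0 higher and 5 lower in flox/flox (1 and 6 at an unadjusted p below 0.05). Of all genes tested, 5.86% were called higher and 6.36% lower in R270H/R270H, and 4.38% and 6.9% in flox/flox. At an unadjusted p below 0.05 (limma), 1652 of all 10042 genes were higher and 1837 lower in flox/flox than in +/+. The calls of the class include *Slc7a8*, which reached 4 rpkm in R270H/R270H only, and *Slc6a15* and *Slc7a3*, which did so in +/+ only. Their part in the counts is a description. The median log2 fold change of the class was -0.25 in R270H/R270H and -0.24 in flox/flox. *Slc3a2* and *Slc7a5* encode the heavy and the light chain of the exchanger that brings leucine and other large neutral amino acids into the cell. *Slc3a2* (chromosome 19, 8706882 to 8723369) was at 72.5 and 81.3 rpkm in +/+, 64.6 and 67.1 in flox/flox and 28.2 and 27.3 in R270H/R270H. *Slc7a5* (chromosome 8, 121881146 to 121907686) was at 81.1 and 79.7 rpkm in +/+, 70.5 and 88.4 in flox/flox and 34.1 and 35.1 in R270H/R270H. In both genes the R270H/R270H libraries alone were low. *Slc3a2* fell by 1.44 on the log2 scale against +/+ (s.e. 0.10, limma adjusted p=0.00367) and by 1.22 against flox/flox (adjusted p=0.00401), and *Slc7a5* by 1.19 (s.e. 0.13, adjusted p=0.00976) and by 1.17 (adjusted p=0.00769). In flox/flox against +/+ the log2 fold change was -0.22 for *Slc3a2* and -0.02 for *Slc7a5*, and neither was called.

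Other carriers of neutral amino acids rose in the same organoids. *Slc7a8* is another light chain that pairs with *Slc3a2* (chromosome 14, 54722215 to 54781886). It was at the floor of 1 rpkm in all +/+ and flox/flox libraries and at 6.73 and 5.28 rpkm in R270H/R270H, at least 6.00-fold higher, and was in the table of tested genes only through the R270H/R270H libraries. *Slc16a10*, a facilitator of aromatic amino acids named by its relation to the monocarboxylate carriers (chromosome 10, 40033532 to 40142270), was at 9.62 and 9.48 rpkm in +/+, 4.19 and 2.70 in flox/flox and 20.8 and 18.3 in R270H/R270H. The 3 genotypes were fully separated, with flox/flox lowest. *Slc16a10* was higher in R270H/R270H than in +/+ by 0.96 on the log2 scale (s.e. 0.19, adjusted p=0.0365, limma) and than in flox/flox by 2.23 (adjusted p=0.00398), and lower in flox/flox than in +/+ by 1.27 (adjusted p=0.0238). With a pseudocount of 0.1 the call against +/+ was lost (adjusted p=0.05004). *Slc7a6*, another such light chain, was at 14.8 and 14.5 rpkm in +/+ and 20.0 and 18.6 in R270H/R270H and was not called (limma adjusted p=0.0768).

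Several further amino acid carriers were lower in both mutant genotypes. *Slc1a5*, the main glutamine carrier of many tumor cells, was at 106 and 107 rpkm in +/+, 56.5 and 67.9 in flox/flox and 61.5 and 64.2 in R270H/R270H organoids (log2 fold change -0.77 and -0.75, s.e. 0.12, limma adjusted p=0.0269 and 0.0238). *Slc38a1*, a sodium-coupled glutamine carrier, was at 59.1 and 59.3 rpkm in +/+, 20.1 and 28 in flox/flox and 33.4 and 30.8 in R270H/R270H (log2 fold change -1.28 and -0.86). *Slc6a15*, a carrier of branched-chain amino acids, was at 4.37 and 5.58 rpkm in +/+, 1 and 1.02 in flox/flox and at the floor in R270H/R270H, where it was at least 4.97-fold lower. In all 3 genes the +/+ libraries lay above the other 4. *Slc6a15* reached 4 rpkm in +/+ only and was tested through these libraries, so its order is a description. *Slc1a4*, the carrier of alanine, serine and cysteine, had its low values in flox/flox, at 21.2 and 34.4 rpkm, beside 80.8 and 83.6 in +/+ and 56.3 and 53.8 in R270H/R270H. It was called lower in flox/flox than in +/+ (log2 fold change -1.57, limma adjusted p=0.0227) and higher in R270H/R270H than in flox/flox (1.00, adjusted p=0.0344), and the difference between R270H/R270H and +/+ was not called (-0.57, adjusted p=0.16). *Slc7a3*, a carrier of arginine and lysine, was likewise called lower in flox/flox only (3.96 and 5.33 rpkm in +/+, 1 and 1.82 in flox/flox, 1.92 and 2.18 in R270H/R270H). Like *Slc6a15*, it reached 4 rpkm in +/+ only.

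**Figure D5:**
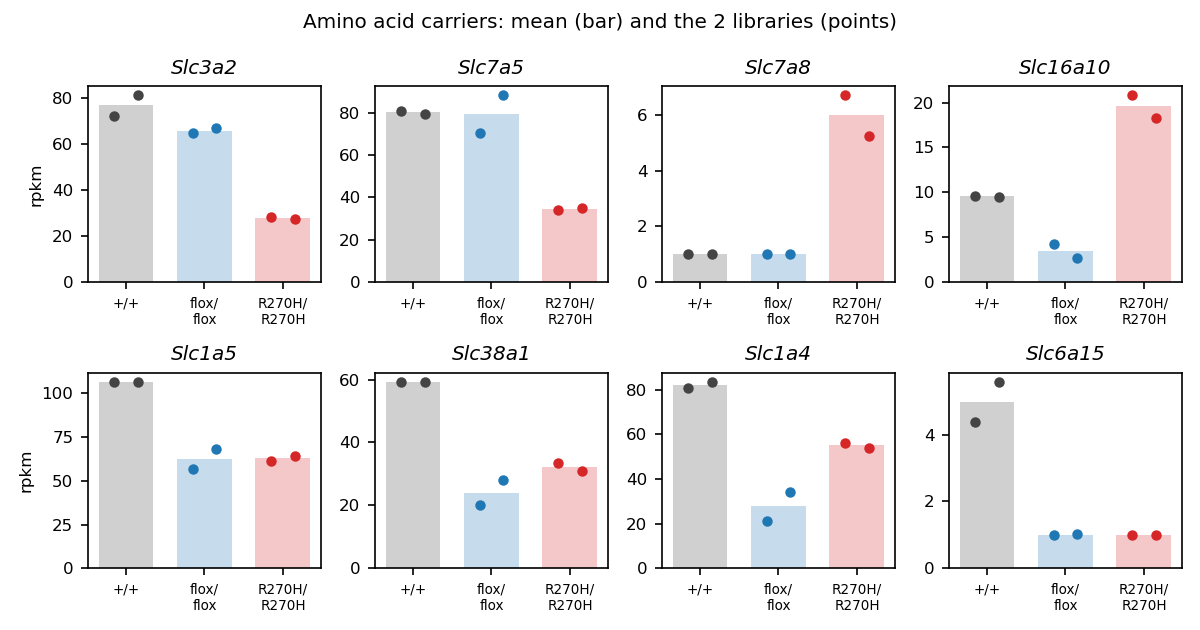
Each panel is an amino acid carrier gene, with rpkm on the vertical axis, bars for the mean of each genotype and points for its 2 libraries. *Slc3a2* and *Slc7a5* are low in R270H/R270H, *Slc7a8* and *Slc16a10* are high there, *Slc1a5*, *Slc38a1* and *Slc6a15* are low in both mutant genotypes, and *Slc1a4* is lowest in flox/flox.

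The most abundant amino acid carrier was *Slc38a6*, at 175 and 173 rpkm in +/+, 171 and 143 in flox/flox and 125 and 116 in R270H/R270H, which was not called (log2 fold change of R270H/R270H against +/+ -0.52, limma adjusted p=0.0571). *Slc38a2*, the glutamine and alanine carrier that cells raise when amino acids run short, was at 103 and 113 rpkm in +/+ and 115 and 107 in R270H/R270H. *Slc7a7*, the light chain that exports cationic amino acids to the blood side, was called lower in R270H/R270H than in flox/flox organoids (log2 fold change -0.44). Its exons share 232 bases with *Oxa1l* on the opposite strand, which reached 29.8 rpkm, and whether strand was used in counting was not stated.

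A list of 20 carriers of glutamine, glutamate and essential amino acids at the plasma membrane covered 13 tested genes. Of these, 1 was called higher and 4 lower in R270H/R270H than in +/+ (*Slc7a8* against *Slc3a2*, *Slc7a5*, *Slc38a1* and *Slc1a5*), and 0 higher and 4 lower in flox/flox (*Slc1a4*, *Slc38a1*, *Slc7a3* and *Slc1a5*; 0 and 5 at an unadjusted p below 0.05). Of all genes tested, 5.86% were called higher and 6.36% lower in R270H/R270H, and 4.38% and 6.9% in flox/flox. At an unadjusted p below 0.05 (limma), 1652 of all 10042 genes were higher and 1837 lower in flox/flox than in +/+. Among the calls of the list, *Slc7a8* reached 4 rpkm in R270H/R270H only and *Slc7a3* in +/+ only. Their part in the counts is a description. The medians of the list were -0.37 and -0.42 on the log2 scale. The summed level of the list ran from 652 to 683 rpkm in +/+, 389 to 521 in flox/flox and 458 to 469 in R270H/R270H organoids. These genes were grouped with earlier results of the same libraries known, and the sums were not tested.

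The *Slc16* family, whose best known members export lactate with a proton, held both the second largest increase and genes that fell. *Slc16a12*, a creatine carrier (chromosome 19, 34668401 to 34747493), was at 1.48 and 1.36 rpkm in +/+, at the floor in flox/flox and at 14.3 and 12.3 rpkm in R270H/R270H. It was 9.35-fold higher than in +/+ (log2 fold change 2.56) and at least 13.3-fold higher than in flox/flox, and reached 4 rpkm in R270H/R270H only. *Slc16a3*, the lactate exporter of glycolytic cells, was at 57.4 and 44.5 rpkm in +/+, 83.6 and 101 in flox/flox and 35.6 and 49.2 in R270H/R270H, 2.18-fold lower in R270H/R270H than in flox/flox (adjusted p=0.0247, limma). *Slc16a1*, the carrier that moves lactate in either direction, stayed between 50.3 and 62.4 rpkm in all libraries. *Slc16a6* was lower in both mutant genotypes (9.83 and 10.3 rpkm in +/+ and 4.93 to 6.17 in the other 4 libraries), and *Slc16a13* was called lower in R270H/R270H (log2 fold change -0.60).

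The sugar families all had log2 fold changes below 0 in R270H/R270H against +/+, with a median of -0.75 over 6 genes, beside 0.03 over all genes tested, and a range from -1.14 to -0.07. Limma called 1 of them, *Slc50a1*, a glucose exporter of the Golgi and plasma membrane, at 38.5 and 41.8 rpkm in +/+, 29.2 and 26.5 in flox/flox and 21.5 and 24.5 in R270H/R270H (log2 fold change -0.78, adjusted p=0.02). Among all genes tested, 6.36% were called lower in R270H/R270H than in +/+. *Slc2a1*, the basal glucose carrier (chromosome 4, 119108745 to 119137330), was at 66.3 and 58.4 rpkm in +/+, 78.1 and 116 in flox/flox and 31.3 and 37.6 in R270H/R270H. Its genotypes did not overlap, with flox/flox highest and R270H/R270H lowest. *Slc2a1* was 2.81-fold lower in R270H/R270H than in flox/flox (log2 fold change -1.44, s.e. 0.22, limma adjusted p=0.0147), while the difference from +/+ was not called (-0.84, adjusted p=0.0667). A noncoding antisense gene overlaps 105 of its exon bases. The flox/flox libraries differed widely in *Slc45a3*, at 1 and 10.7 rpkm. *Slc5a6*, counted here by its family number, carries biotin and pantothenate rather than sugar.

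Over a list of 12 glucose and lactate carriers, 4 were tested and 7 stood at the floor in all libraries, among them the insulin-regulated *Slc2a4*. Limma called 0 of the 4 against +/+ in either mutant genotype. At an unadjusted p below 0.05, 2 were lower in R270H/R270H and 2 higher in flox/flox, beside 1560 and 1652 of all 10042 genes. It called 2 lower in R270H/R270H than in flox/flox, *Slc2a1* and *Slc16a3* (11% of all genes tested). The summed level was 177 to 196 rpkm in +/+, 223 to 290 in flox/flox and 132 to 153 in R270H/R270H. Of 10 carriers that textbooks link to p53, 5 were tested. In R270H/R270H against +/+, 1 was called lower (*Slc19a1*, beside 6.36% of all genes), and in flox/flox 1 was called lower (*Slc7a3*, beside 6.9%). Between the mutant genotypes *Slc25a28*, a mitochondrial iron importer, was called higher and *Slc2a1* and *Slc19a1* lower in R270H/R270H, beside 13.6% and 11% of all genes.

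The largest decrease among all carriers was in *Slc28a2*, the sodium-coupled carrier of purine nucleosides (chromosome 2, 122426357 to 122461152). It was at 15.5 and 14.5 rpkm in +/+, 1 and 6.88 in flox/flox and at the floor in both R270H/R270H libraries, where it was at least 15.0-fold lower (log2 fold change -3.00, s.e. 0.62, limma adjusted p=0.0411). With a pseudocount of 0.1 the adjusted p was 0.0507. The flox/flox libraries were also below +/+ but differed widely from each other and were not called (adjusted p=0.0942). The equilibrative carriers of the *Slc29* family changed less. *Slc29a1*, the most abundant nucleoside carrier, was at 52.4 and 49.2 rpkm in +/+ and 35.6 and 38.7 in R270H/R270H (limma adjusted p=0.168), and a noncoding antisense gene overlaps 275 of its exon bases.

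Vitamin carriers went in opposite directions. Of the 8, 2 were called higher and 2 lower in R270H/R270H than in +/+, beside 5.86% and 6.36% of all genes. In flox/flox 1 was called higher and 1 lower, beside 4.38% and 6.9%. *Slc52a2*, a riboflavin importer (chromosome 15, 76538814 to 76547878), was at 13.5 and 12.5 rpkm in +/+, 6.48 and 6.36 in flox/flox and 3.6 and 5.06 in R270H/R270H, a fall of 1.41 on the log2 scale in R270H/R270H (s.e. 0.16, limma adjusted p=0.0106) and of 0.92 in flox/flox (adjusted p=0.0324). *Slc19a1*, the reduced folate carrier, was at 16.2 and 15.7 rpkm in +/+, 13.5 and 14.9 in flox/flox and 7.70 and 8.66 in R270H/R270H, low only in R270H/R270H (log2 fold change -0.89 against +/+, adjusted p=0.0136, limma, and -0.73 against flox/flox, adjusted p=0.0153). *Slc23a2*, a sodium-coupled carrier of ascorbate (chromosome 2, 132052496 to 132145320), was at 4.69 and 5.03 rpkm in +/+, 2.95 and 4.42 in flox/flox and 12 and 10.7 in R270H/R270H. It was 2.34-fold higher in R270H/R270H than in +/+ (limma adjusted p=0.0266) and 3.08-fold higher than in flox/flox (adjusted p=0.0106). *Slc23a3*, an orphan relative of it, was high in flox/flox instead, at 9.47 and 5.08 rpkm beside 1.45 and 1.71 in +/+ and 1.65 and 2.69 in R270H/R270H. It reached 4 rpkm in flox/flox only. *Slc46a3*, a lysosomal member of the folate carrier family on chromosome 5, was at 1.20 and 1.66 rpkm in +/+, 1.59 and 1 in flox/flox and 4.33 and 3.81 in R270H/R270H, 2.84-fold higher than in +/+, and likewise reached 4 rpkm in R270H/R270H only. The thiamine carrier *Slc19a2*, the most abundant of the class, was not called, at 17.1 and 19.8 rpkm in +/+ and 11.8 and 12.1 in R270H/R270H.

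The 29 mitochondrial carriers of the *Slc25* family were the largest class and moved little as a group, with a median log2 fold change of -0.01 in R270H/R270H and -0.04 in flox/flox against +/+. *Slc25a5* was at 480 and 473 rpkm in +/+, 885 and 590 in flox/flox and 449 and 471 in R270H/R270H, and the differences were not called. *Slc25a1*, which exports citrate to the cytosol, was at 128 and 136 rpkm in +/+, 144 and 121 in flox/flox and 81.4 and 81.9 in R270H/R270H, low only in R270H/R270H (log2 fold change -0.69 against each, limma adjusted p=0.0287 and 0.0201). *Slc25a36*, a pyrimidine nucleotide carrier, was lowest in flox/flox, at 31 and 35.3 rpkm in +/+, 10.5 and 11.8 in flox/flox and 21.0 and 19.6 in R270H/R270H, and all 3 differences were called (log2 fold change -0.68 in R270H/R270H and -1.49 in flox/flox against +/+). *Slc25a20*, the carnitine-acylcarnitine carrier of fatty acid oxidation, was also low in flox/flox, at 15.0 and 11 rpkm beside 22.2 and 24.3 in +/+ (log2 fold change -0.81, limma adjusted p=0.0395). *Slc25a48* on chromosome 13 was high there, at 19.4 and 11.3 rpkm beside 4.39 and 5.88 in +/+ and 2.69 and 2.34 in R270H/R270H, which made it 6.12-fold lower in R270H/R270H than in flox/flox (adjusted p=0.01, limma). Among the 4 *Slc25* genes called higher in R270H/R270H than in flox/flox (13.6% of all genes tested) were also *Slc25a28* and *Slc25a13*. Among the 4 called lower (11% of all genes tested) were *Slc25a10* and *Slc25a12*.

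In the ion and pH carriers the differences between flox/flox libraries were widest, and limma called few genes. *Slc4a11*, a proton carrier of the bicarbonate transporter families (chromosome 2, 130684107 to 130697519), was at 6.18 and 7.99 rpkm in +/+, 1.04 and 3.19 in flox/flox and 1.21 and 1.56 in R270H/R270H, 5.10-fold lower in R270H/R270H than in +/+, the only genotype in which it reached 4 rpkm. Its call was lost with a pseudocount of 0.1. *Slc9a3* was at 25.2 and 23.1 rpkm in +/+ and 11 and 10.2 in R270H/R270H, *Slc9a4* at 5.37 and 6.10 and at 1.80 and 1.79, and *Slc26a2* at 28.8 and 35.7 and at 11.8 and 11. None of these 3 was called. Their flox/flox libraries were at 1 and 13.8, 1 and 12.7, and 5.55 and 16.1 rpkm, and entered the same estimate of the spread. *Slc9a3r1*, which encodes the scaffold that ties carriers to the brush border (chromosome 11, 115163341 to 115181178), was high in flox/flox, at 109 and 83.2 rpkm beside 44.5 and 41.7 in +/+ and 40.9 and 41.7 in R270H/R270H, 2.23-fold higher than in +/+ (limma adjusted p=0.0199). *Slc12a2*, which brings sodium, potassium and chloride into secreting cells and was the most abundant of the class, was at 118 and 105 rpkm in +/+, 92.6 and 85.9 in flox/flox and 128 and 129 in R270H/R270H, called higher in R270H/R270H than in flox/flox (log2 fold change 0.53, adjusted p=0.0277, limma). *Slc20a2*, a phosphate importer, was called lower in flox/flox than in both other genotypes (log2 fold change against +/+ -0.76).

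The *Slc35* family carries nucleotide sugars into the Golgi and endoplasmic reticulum for the building of glycans. *Slc35f2*, a member whose place in glycan building is less clear (chromosome 9, 53771433 to 53818161), was at 5.78 and 6.05 rpkm in +/+, 6.98 and 5.13 in flox/flox and 14.8 and 14.2 in R270H/R270H, 2.45-fold higher than in +/+ (log2 fold change 1.17, s.e. 0.16, limma adjusted p=0.0151). *Slc35c1*, the carrier of GDP-fucose, was at 62.6 and 63.1 rpkm in +/+, 48.2 and 53.7 in flox/flox and 39.2 and 38.7 in R270H/R270H, with lower calls in R270H/R270H against both (log2 fold change -0.68 and -0.38). *Slc35d2* on chromosome 13 fell in both mutant genotypes, from 5.07 and 5.07 rpkm to 2.83 and 2.83 in flox/flox and 2.97 and 2.47 in R270H/R270H. *Slc35e4* was at 5.59 and 3.82 rpkm in flox/flox and 1.44 and 1.63 in R270H/R270H, with 1.65 and 2.31 in +/+. *Slc35a3*, the carrier of UDP-N-acetylglucosamine and the most abundant of the class, was at 67.2 and 68.1 rpkm in +/+ and 47.5 and 44.6 in R270H/R270H and was not called (limma adjusted p=0.122). A gene model on the same strand shares 275 of its exon bases. Of the 19 genes 2 were called higher and 2 lower in R270H/R270H than in +/+ (5.86% and 6.36% of all genes tested). In flox/flox 0 were called higher and 2 lower, against 4.38% and 6.9%. At an unadjusted p below 0.05 (limma), 4 were higher and 7 lower in flox/flox, beside 1652 and 1837 of all 10042 genes. The counts of lower genes include *Slc35d2*, which reached 4 rpkm in +/+ only.

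Of the 13 carriers of bile acids, lipids, choline and organic ions, 0 were called higher and 2 lower than in +/+ in each mutant genotype. Of all genes tested, 5.86% were called higher and 6.36% lower in R270H/R270H, with 4.38% and 6.9% in flox/flox. Between the mutant genotypes 2 were called higher and 0 lower in R270H/R270H, beside 13.6% and 11% of all genes. *Slc44a1*, the most abundant choline carrier, was at 49.1 and 47.8 rpkm in +/+, 41.3 and 45.4 in flox/flox and 57.6 and 55.7 in R270H/R270H, called higher in R270H/R270H than in flox/flox (limma adjusted p=0.0462, and 0.0557 after rescaling of the libraries). *Slc44a3*, of the same family, was low in flox/flox, at 13.7 and 10 rpkm beside 22.9 and 22.7 in +/+ and 23.5 and 24.4 in R270H/R270H. *Slc22a18* was at 16 and 16.8 rpkm in +/+ and between 8.24 and 10.5 in the other 4 libraries, called lower in both mutant genotypes (log2 fold change -0.75 and -0.76). *Slc22a23* on chromosome 13 was called lower in R270H/R270H (log2 fold change -0.74). *Slc10a2*, the bile acid importer of the ileum, was seen only in flox/flox replicate 2, at 4.87 rpkm, and stood between 1 and 1.06 in the other libraries.

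Among the 8 carriers of vesicles, lysosomes and the endoplasmic reticulum, 2 were called lower in flox/flox than in +/+ (6.9% of all genes tested). The class median log2 fold change there was -0.01, beside -0.02 for all genes. *Slc17a5*, which releases sialic acid from lysosomes (chromosome 9, 78536487 to 78588045), was at 16.8 and 16.5 rpkm in +/+, 4.97 and 5.93 in flox/flox and 12.7 and 11 in R270H/R270H, 3.06-fold lower in flox/flox than in +/+ (limma adjusted p=0.00903). *Slc18a1*, which fills vesicles with monoamines in endocrine cells, was at 7.10 and 5.49 rpkm in +/+, 1.85 and 2.63 in flox/flox and 11.3 and 10.01 in R270H/R270H, 4.76-fold higher in R270H/R270H than in flox/flox (adjusted p=0.00583, limma). *Slc37a4*, the glucose 6-phosphate carrier of the endoplasmic reticulum, was called lower in R270H/R270H than in flox/flox (log2 fold change -0.59). The urea channel *Slc14a1*, the most abundant of the class, was at 19.1 and 15.1 rpkm in +/+, 23.5 and 41 in flox/flox and 32.4 and 35.6 in R270H/R270H and was not called.

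The carriers by which a mature enterocyte absorbs nutrients were for the most part below 4 rpkm, as were 194 of the 355 Slc rows after the exclusions. Of 36 such carriers listed, 34 were in the table and 13 were tested. In all 6 libraries 12 rows stood at the floor, including a further row of *Slc26a6*, whose other row reached 2.13 rpkm. Among those at the floor were *Slc2a2*, the basolateral glucose carrier, and *Slc6a19*, the neutral amino acid carrier of the brush border. Of the 13 tested, 0 were called higher and 3 lower in R270H/R270H than in +/+ (0 and 3 at an unadjusted p below 0.05), which were *Slc28a2*, *Slc40a1* and *Slc39a4*, and 1 was called lower in flox/flox (*Slc40a1*). Over all genes tested, 5.86% were called higher and 6.36% lower in R270H/R270H, and 4.38% and 6.9% in flox/flox. At an unadjusted p below 0.05 (limma), 1649 of all 10042 genes were higher and 1560 lower in R270H/R270H. The median log2 fold change of the 13 was -0.21 in R270H/R270H and -0.13 in flox/flox, beside 0.03 and -0.02 for all genes. The summed level of 8 enterocyte markers ran from 148 to 168 rpkm in +/+, 109 to 177 in flox/flox and 122 to 134 in R270H/R270H, of which *Vil1* gave the largest share and 4 were at the floor in all libraries. *Alpi* was at 4.86 and 10.7 rpkm in +/+, at the floor in flox/flox and at 8.80 and 4.35 in R270H/R270H, and was called lower in flox/flox than in +/+ (limma adjusted p=0.0426) and higher in R270H/R270H than in flox/flox (adjusted p=0.0351). *Fabp1* was at 3.81 and 4.77, 1 and 1.20, and 8.87 and 4.39 rpkm, and was called higher in R270H/R270H than in flox/flox (limma adjusted p=0.0193). *Fabp2* was at 27.6 and 31.4, 14.2 and 3.11, and 12.1 and 10.8 rpkm and was not called. Whether the share of differentiated cells had a part in these differences was not tested.

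Of 31 transporters and partners of carriers that have no Slc symbol, listed with earlier results of these data known, 29 were in the table and 19 were tested. In R270H/R270H against +/+ 2 were called higher and 6 lower, beside 5.86% and 6.36% of all genes tested, and in flox/flox 1 higher and 1 lower, beside 4.38% and 6.9%. *Bsg*, basigin, the chaperone of the lactate carriers, was at 666 and 670 rpkm in +/+, 416 and 475 in flox/flox and 278 and 326 in R270H/R270H (log2 fold change of R270H/R270H against +/+ -1.15, limma adjusted p=0.0119). *Mpc1*, which with *Mpc2* brings pyruvate into mitochondria, was called lower in R270H/R270H (log2 fold change -0.54), as were *Sfxn1*, a mitochondrial serine carrier, *Sfxn3* and *Spns2*. *Mfsd2a* and *Sfxn2* were called higher.

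Some chromosomes moved as a whole, and the carriers on them are to be read beside these values. On chromosome 13 the median log2 fold change of 357 genes, relative to all genes tested, was -0.36 in R270H/R270H against +/+ and -0.28 against flox/flox, and 8 carriers lie there, including *Slc22a23*, *Slc35d2*, *Slc25a48*, *Slc9a3*, *Slc30a5* and *Slc12a7*. On chromosome 5 the median difference of replicate 1 from replicate 2 in flox/flox was 0.34 over 653 genes, and 10 carriers lie there, including *Slc46a3*, *Slc30a9* and *Slc7a1*. The part of these chromosome shifts in the values of single carriers was not tested. Of the endothelial markers, *Vwf* was at 8.10 and 6.26 rpkm in +/+ and at most 1.05 in the other 4 libraries, and *Cdh5* was at 8.88 and 9.35 in +/+, 1 and 3.30 in flox/flox and 1.04 and 1 in R270H/R270H. Both were called lower in both mutant genotypes (log2 fold change of *Vwf* -2.02 in R270H/R270H and -2.01 in flox/flox, of *Cdh5* -2.32 and -1.79), as were 11 carriers. *Tek* reached 21.4 rpkm in flox/flox replicate 2 and gave most of the high sum there. The part of these markers in the carriers that fell was not tested either.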

How the data were processed

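Poly(A) RNA libraries (TruSeq Stranded mRNA) were sequenced on an Illumina HiSeq instrument by the authors. They aligned the reads to mm10 and made the deposited rpkm values in StrandNGS, whose version, annotation, filters and use of strand are not given in the sources used here. All rows of the deposited table served, and libraries were assigned by their titles. The 10042 genes whose highest value was 4 rpkm or more were fitted on log2(rpkm + 1) with limma 3.58.1 in R 4.3.3, with a mean-variance trend, a shared spread over the 3 genotypes, two-sided tests and p-values adjusted by Benjamini-Hochberg across these genes. A gene was called at an adjusted p below 0.05. Fold changes on this scale understate changes of low genes, and folds against a genotype at the floor of 1 rpkm are lower bounds. The different preparations come from different mice, so p-values rest on the spread between 2 preparations a genotype, pooled over the 3 genotypes. The wide spread of the flox/flox libraries thus enters every comparison, including that of R270H/R270H with +/+.

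The read counts were not recovered, because the steps of a single read, seen in only 8 to 23 short RNA genes a library, gave no common depth. No per-sample column was left unused. Coordinates, start regions and neighbouring genes came from RefSeq on GRCm38.p6 (all 161 genes matched by gene ID, 118 with a start region) and from GENCODE, searched with Python 3.11.15.

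The carriers, their classes by family number and the gene lists were chosen with earlier results of these data known. Genes were named by these rules: the 8 called carriers with the largest log2 fold change in each direction of each comparison, the most abundant carrier of each class, and called carriers of the lists (41 genes). Other names were chosen after their values were seen.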

Additional observations from a re-analysis of the deposited data

How the results depend on the processing

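The limits of these results are the 2 libraries a genotype, the wide spread of the flox/flox libraries, the unknown depth and the floor of 1 rpkm. Counts of called carriers are given as higher and lower. Shares over all genes are not given for the other settings of this section. The counts under them describe the carriers alone and are not set against other genes. For R270H/R270H against +/+ (9 and 22), they were 3 and 4 with no filter on low values, 39 and 61 with weights for each genotype and 39 and 62 with only the 2 genotypes compared, and ranged from 0 to 39 and from 0 to 63 when a library was left out. For flox/flox against +/+ (3 and 21), they were 0 and 0 with no filter (16 and 43 at an unadjusted p below 0.05, limma), 1 and 4 with weights and 0 and 0 with only the 2 genotypes (8 and 34 at an unadjusted p below 0.05), and ranged from 0 to 27 and from 0 to 71 when a library was left out. For R270H/R270H against flox/flox (26 and 18), they were 8 and 2 with no filter, 10 and 4 with weights and 5 and 3 with only the 2 genotypes, and ranged from 3 to 68 and from 0 to 45 when a library was left out. A genotype left with 1 library was assumed to vary like the others. More genes were adjusted for without the filter. The causes of the other changes were not tested.

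The replicate numbers did not pair the libraries: the correlation of same-numbered deviations was 0.117 between +/+ and flox/flox, -0.291 between +/+ and R270H/R270H and -0.196 between flox/flox and R270H/R270H. With the replicate block the counts were 4 and 9, 1 and 7, and 16 and 7 in the order above. With the block and the R270H/R270H numbers exchanged, chosen after seeing the data, they were 5 and 18, 2 and 16, and 24 and 16.

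Carriers at least 2-fold apart by their means numbered 7 higher and 13 lower in R270H/R270H against +/+, 6 and 16 in flox/flox against +/+ and 13 and 13 in R270H/R270H against flox/flox. Shares over all genes are not given for the counts that follow, nor are all counts under the rule by pairs, so they describe carriers alone. When every pair of libraries had to differ 2-fold, flox/flox against +/+ gave 1 and 10, and 5 were lower in R270H/R270H than in flox/flox. Leaving out a library gave 7 to 9 and 10 to 17, 6 to 8 and 14 to 34, and 12 to 22 and 8 to 15. The pseudocount, the scaling and a filter of over 1 rpkm left the counts within 1.5 times. Over 78 class medians under another pseudocount or scaling, the largest shift was 0.14 on the log2 scale. No called fold change of a named carrier changed sign.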
